A study of Mus musculus with 8 samples.

Results

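Hcrt, Pmch, Avp, Oxt, Agrp, Trh, Crh, Gal, Ghrh and Gnrh1 encode 10 neuropeptides made largely by neurons of the hypothalamus. Their values were taken from every non-control probe that carried the gene's name on a mouse whole-genome array of 41174 different probes with 27962 different gene names. A probe was found for 9 of the 10 genes and none carried the name Crh. The 9 genes had 10 probes, because Ghrh had 2.

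The mice were male C57BL/6J, 8 to 12 weeks old. They underwent permanent middle cerebral artery occlusion (PMCAO), in which a filament left inside the vessel keeps the main artery of the lateral forebrain closed, or a sham operation in which the external carotid artery was exposed and the wound closed. Right after surgery each mouse received, into a brain ventricle, 1 µl of saline or of saline with 1 pmol of PACAP38, the long form of pituitary adenylate cyclase-activating polypeptide. The hemisphere on the operated side was collected 6 h or 24 h later, and RNA of 3 mice was pooled for each of the 8 combinations of surgery, treatment and time. The PMCAO mice were picked for a neurological grade of 1 or 2 and the sham mice at random. A pool therefore holds mice that were selected by outcome in the PMCAO arms only. Every value is of a hemisphere, taken without olfactory bulb and cerebellum, in which the hypothalamus is a small piece.

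PACAP38 and saline pools of the same surgery and time were labelled with 2 dyes and hybridised together, once in each dye orientation, which gives 8 arrays and 16 channels. The methods describe both arrays of a comparison as the same pooled RNA, so their mean was counted as 1 sample. No single comparison has replicate pools, and the difference between its 2 arrays measures technical error only. All 6 h arrays were treated as on 1 slide and all 24 h arrays as on another, so time and slide cannot be told apart. The methods of the paper instead word the 2 dye orientations as hybridised on different slides.

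These peptides are cut from larger precursors in neurons of small, distinct hypothalamic nuclei. Hypocretin (Hcrt, also called orexin) and melanin-concentrating hormone (Pmch) come from intermingled but separate neurons of the lateral hypothalamus that act on arousal, sleep and feeding. Agouti-related peptide (Agrp) from the arcuate nucleus drives feeding, and galanin (Gal) is spread over many nuclei and over the brainstem. Vasopressin (Avp) and oxytocin (Oxt) are made by large neurons that send their axons to the posterior pituitary. Thyrotropin-releasing hormone (Trh), growth hormone-releasing hormone (Ghrh) and gonadotropin-releasing hormone (Gnrh1) reach the anterior pituitary through its portal vessels. Trh and Avp are also expressed outside the hypothalamus.

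Avp and Oxt are neighbouring genes on chromosome 2 that arose by duplication, and their probes had the highest content of G and C bases among these genes. The 60-base probe sequences are shown because both probes lie in the part of the genes that encodes the neurophysin carriers, and a signal of one might take in RNA of the other. Capitals mark the 15 bases that both share, the longest identical run. The array files place the Avp probe at chr2:130321669-130321934 on the minus strand and the Oxt probe at chr2:130317618-130317761 on the plus strand of build mm7. Both spans exceed the length of the probe.

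Avp: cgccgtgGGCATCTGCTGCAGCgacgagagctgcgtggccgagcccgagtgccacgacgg

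Oxt: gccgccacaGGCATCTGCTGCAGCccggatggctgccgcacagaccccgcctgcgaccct

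The promoters of the 4 genes with the lowest ratio of PACAP38 to saline 24 h after PMCAO, described further on, are shown for the motifs they hold. RefSeq's table for GRCm38 had an entry for 7 of the genes. Each line gives the 120 bases before the transcription start. Capitals mark the TATA-box letters ATAAA, searched on both strands in the last 60 bases, where 11.8% of 32851 mouse promoters hold them.

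Hcrt, chr11:100762932-100763051, minus strand: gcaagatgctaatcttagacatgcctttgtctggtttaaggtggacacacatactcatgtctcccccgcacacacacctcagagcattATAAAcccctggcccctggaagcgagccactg

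Pmch, chr10:88090952-88091071, plus strand: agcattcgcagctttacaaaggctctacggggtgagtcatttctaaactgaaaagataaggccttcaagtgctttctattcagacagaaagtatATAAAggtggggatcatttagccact

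Avp, chr2:130582589-130582708, minus strand: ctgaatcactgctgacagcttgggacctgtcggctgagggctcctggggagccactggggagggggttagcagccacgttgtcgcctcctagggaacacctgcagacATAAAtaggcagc

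Oxt, chr2:130576049-130576168, plus strand: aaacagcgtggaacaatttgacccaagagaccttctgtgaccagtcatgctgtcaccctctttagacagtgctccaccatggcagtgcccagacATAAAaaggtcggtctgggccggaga

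Counted back from the start, the motif begins at position -32 in Hcrt, -26 in Pmch, -13 in Avp and -26 in Oxt. The core letters TGACG of the cyclic AMP response element, the class of site through which PACAP receptors are known to act on many genes, were searched on both strands over the whole 120 bases. They were in none of the 4 and in 11.7% of all promoters. These are matches of letters in a window and say nothing of binding.

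The leading probe of each of the 9 genes was well above background in all 16 channels. The second Ghrh probe was well above background in 2 channels, both on 1 array, and is not described further except where named. In a bulk tissue, fewer cells of a type and less RNA per cell cannot be told apart.

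The replicate 2 array of sham mice at 6 h stood apart from all others. It had 10.7% of spots marked as outliers against 0.323% to 3.09% on the other arrays. Its mean levels correlated with those of its dye-swapped partner with r of 0.933 across probes, against 0.994 to 0.995 in the other pairs, and 37.6% of 17639 bright probes differed more than 2-fold between the 2 arrays, against 0.0964% to 0.578%. The difference followed base composition: its median was 0.77 on the log2 scale for probes with under 40% G and C, -0.52 between 40% and 55%, and -1.28 above 55%. In the other pairs these medians lay between -0.35 and 0.15. The trend in the sham 6 h pair did not hold to the top of the range. Its median was -1.83 for probes with 65% to 70% and -1.02 for the 30 probes with 70% to 75%.

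**Figure D1:**
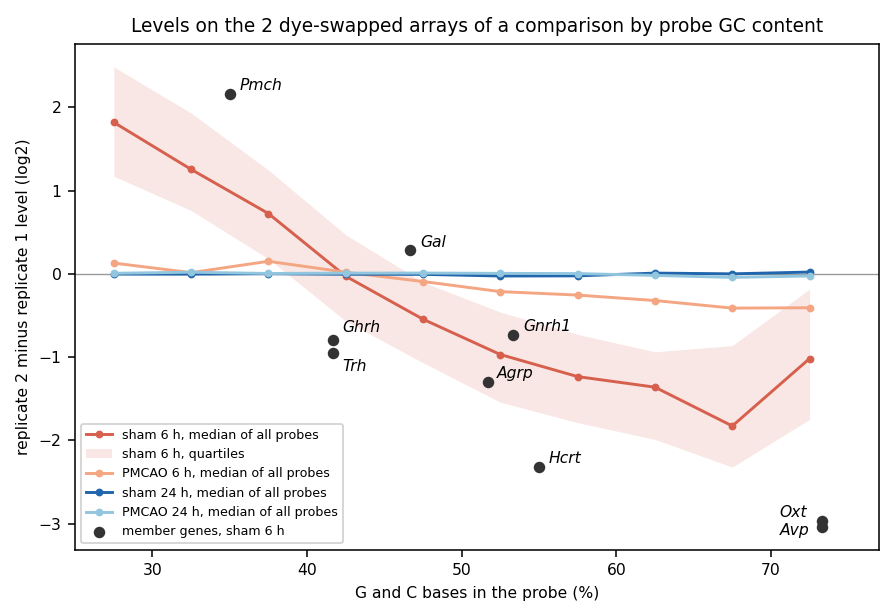
The y axis is the log2 level on the replicate 2 array minus that on the replicate 1 array of the same pools, the x axis the share of G and C bases in the probe. Lines are medians over all bright probes in bins 5 percentage points wide, the band spans the quartiles for sham 6 h, and black points are the 9 neuropeptide genes in sham 6 h, from -3.04 for Avp to 2.16 for Pmch.

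Most of the neuropeptide genes differed strongly between these 2 arrays. Replicate 2 minus replicate 1 was -3.04 for Avp and -2.96 for Oxt, whose probes hold 73.3% G and C, and -2.32 for Hcrt with 55%. It was 2.16 for Pmch, whose probe holds 35%. For the other 5 genes it lay between -1.30 and 0.28, and in the other 3 pairs between -0.29 and 0.09 for all 9. In sham 6 h Avp, Oxt, Hcrt and Pmch lay outside the quartiles of all bright probes of like composition. So did Trh at -0.96, Ghrh at -0.79 and Gal at 0.28, while Agrp and Gnrh1 lay inside. By definition the quartiles leave out as many probes as they hold. Those quartiles were -1.75 to -0.18 at 70% to 75%, -1.79 to -0.73 at 55% to 60%, and 0.18 to 1.25 at 35% to 40%. They were -0.57 to 0.47 at 40% to 45% and -1.07 to -0.10 at 45% to 50%. The ratio of PACAP38 to saline within that array compares 2 dyes on 1 spot, and for the 9 genes it lay between -0.28 and 0.44. Every comparison of PMCAO with sham at 6 h uses the level on that array, so those values are given with and without it.

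In the description of pool levels that follows, a level is log2 of the scanner's processed signal after normalization within and between arrays, averaged over the 2 dyes. It can be compared across pools for one gene but not between genes. For the 2 sham pools at 6 h the level is that of the replicate 1 array alone.

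Hcrt had a narrow range in 7 of the 8 pools and a single low one. At 6 h its level was 12.19 in sham saline, 12.15 in sham PACAP38, 12.22 in PMCAO saline and 12.31 in PMCAO PACAP38. At 24 h it was 12.06, 12.08, 12.15 and 11.55 in the same order. The last pool, PMCAO mice given PACAP38, was the lowest of all 8, and the 24 h pools spanned 0.60.

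Pmch had the same lowest pool at 24 h. Its 6 h levels were 12.33, 12.29, 12.25 and 12.42 in sham saline, sham PACAP38, PMCAO saline and PMCAO PACAP38. Its 24 h levels were 12.45, 12.46, 12.45 and 11.98. The sham saline, sham PACAP38 and PMCAO saline pools at 24 h lay at 12.45 to 12.46 and PMCAO PACAP38 was apart from them.

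Avp was highest in PMCAO mice given saline. In the order used for Hcrt it stood at 10.99, 11.05, 11.28 and 10.89 on the 6 h slide. On the 24 h slide it stood at 11.08, 10.97, 11.61 and 11.02. PMCAO saline led the pools of each time, and PMCAO PACAP38 lay close to the 2 sham pools at 24 h.

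Oxt was lower on the 24 h slide in every group. Its levels were 12.18, 12.13, 12.06 and 11.96 on the earlier slide and 11.67, 11.45, 11.64 and 11.12 on the later one. As for Hcrt and Pmch, PMCAO PACAP38 at 24 h was the lowest of the 8 pools.

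Agrp had the widest 24 h range of the 9 genes, 0.89. Its levels were 6.29, 6.75, 6.71 and 6.44 on the 6 h slide and 6.99, 6.31, 7.20 and 6.99 on the 24 h slide. Here the low pool at 24 h was sham PACAP38, and the other 3 lay between 6.99 and 7.20.

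Gal lay between 10.43 and 10.92 in all 8 pools, the lowest being sham PACAP38 and the highest PMCAO saline, both at 24 h. Trh lay between 7.33 and 8.07 and Gnrh1 between 6.41 and 7.23. Ghrh ranged from 7.41 in PMCAO PACAP38 at 24 h to 8.23 in PMCAO saline at 6 h. Hcrt, Pmch, Oxt and Ghrh thus had their lowest pool in PMCAO PACAP38 at 24 h. The share of all probes with that lowest pool was not computed.

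**Figure D2:**
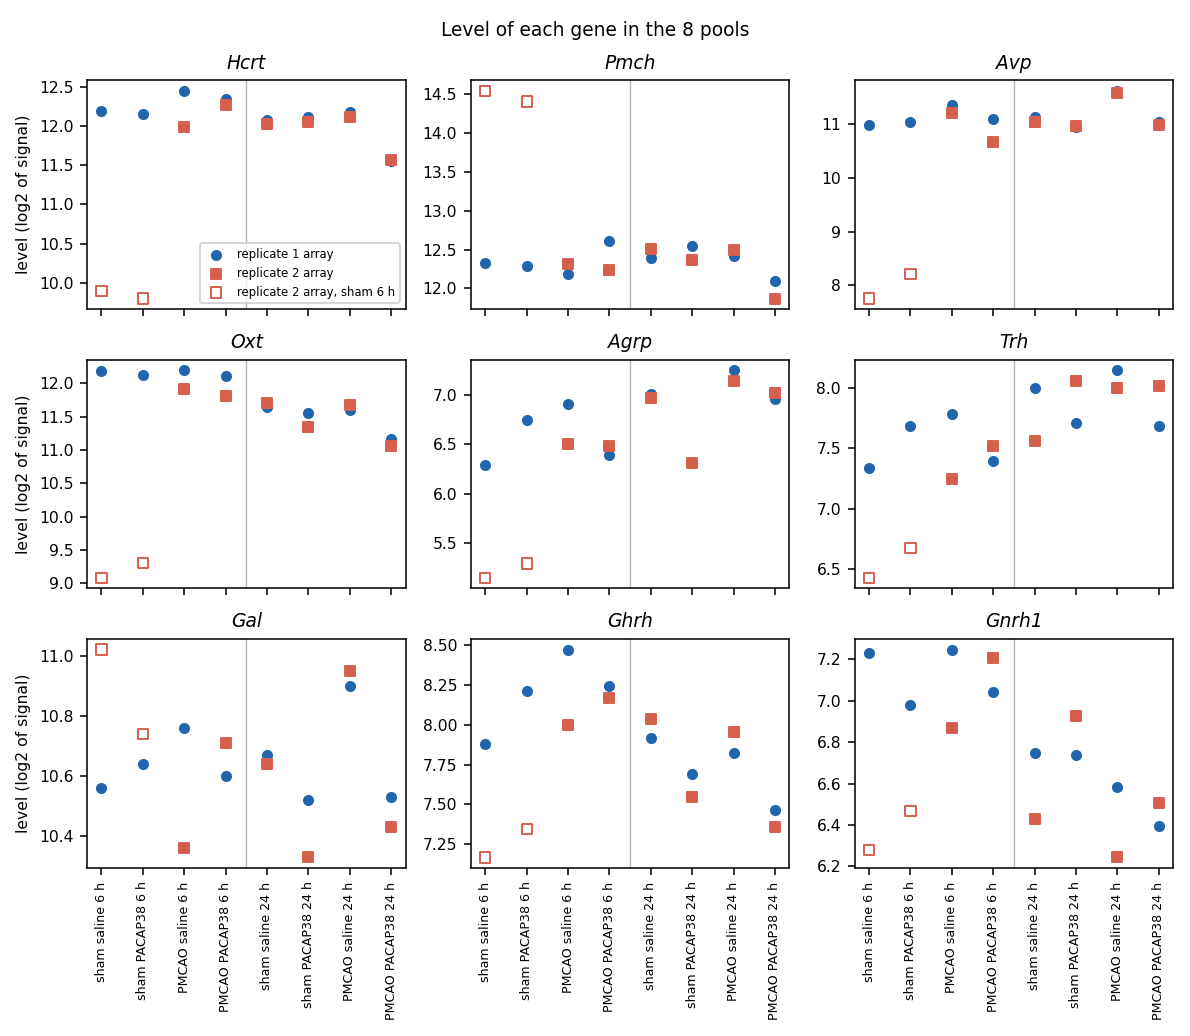
The y axis is the log2 level and the x axis the 8 pools by surgery, treatment and time, with a panel for each gene. Filled points are the 2 arrays and open squares the sham 6 h array that stood apart. The levels of Hcrt, Pmch and Oxt dip in PMCAO PACAP38 at 24 h (11.55, 11.98 and 11.12).

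The study asked which genes PACAP38 influences, alone and after ischemia. For it the study set PACAP38 against saline within each surgery and time, and called a gene above 1.5-fold or below 0.75-fold. The ratio is given here on the log2 scale as the mean of the 2 arrays, with the dye-swapped array turned to PACAP38 over saline, and the median over all probes was 0 in each comparison. Across all probes the turned ratios of the 2 arrays correlated with r of -0.148 (sham) and -0.140 (PMCAO) at 6 h. At 24 h r was -0.417 for sham and 0.0530 for PMCAO. Both dye orientations are given for each gene for that reason.

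At 24 h after PMCAO most of the neuropeptide genes had a lower value with PACAP38 than with saline. Of the 9 genes, 6 were below 0.75-fold, where 8.18% of all 41167 probes were, and 0 were above 1.5-fold, where 2.99% were. Their median log2 ratio was -0.43. Both arrays put 7 of the 9 genes below 0, as they did 17.6% of all probes.

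In the lateral hypothalamic pair, Hcrt had log2 ratios of -0.62 and -0.53 on the 2 arrays, a mean fold of 0.67. Pmch had -0.31 and -0.60, a mean fold of 0.73. Both arrays were low for each gene, and for Pmch only the second was below the fold.

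The posterior pituitary hormones had values of like size. Avp had -0.56 and -0.57, a mean fold of 0.68, and Oxt had -0.40 and -0.59, a mean fold of 0.71. Hcrt and Avp were the 2 genes below 0.75-fold on each of the 2 arrays, which held for 3.75% of all probes.

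Among the rest, Ghrh had -0.30 and -0.55, and Gal had -0.35 and -0.49. Both means were just under 0.75-fold. With the second, dim probe of Ghrh averaged in, its mean was -0.06 in place of -0.43, and 5 of the 9 genes were below the fold. The remaining 3 genes were not past the fold, with -0.24 and -0.07 for Agrp, -0.41 and 0.07 for Trh, and -0.14 and 0.31 for Gnrh1. The arrays disagreed in sign for Trh and Gnrh1.

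With a limit of 1.5-fold in both directions, 0 of the 9 genes were past it in this comparison, against 7.78% of all probes. With the replicate 1 array alone, 2 of the 9 genes were below 0.75-fold (12.8% of all probes), and with the replicate 2 array alone 6 of the 9 were (10.1%). With normexp background correction and loess, 5 of the 9 were below (2.82%) and 0 above (0.136%).

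In sham mice at 24 h Agrp alone was below 0.75-fold with PACAP38, at -0.68 on both arrays (fold 0.62), where 3.87% of all probes were below. Hcrt had 0.04 and 0.01, and Pmch 0.16 and -0.14. Avp had -0.15 and -0.08, Oxt -0.07 and -0.37, Gal -0.13 and -0.33, and Ghrh -0.20 and -0.51. Hcrt therefore lay near 0 in sham and near -0.57 after PMCAO at the same time.

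At 6 h no neuropeptide gene was past the fold in either surgery. In sham mice 0 of 9 were, against 11.5% of all probes in either direction, and the means lay between -0.10 for Gal and 0.30 for Agrp. After PMCAO 0 of 9 were, against 12.3% of all probes. Avp came closest, at -0.26 and -0.54, followed by Agrp at -0.54 and -0.03. The 2 arrays had opposite signs for Hcrt, Pmch, Trh, Gal, Ghrh and Gnrh1 after PMCAO at 6 h.

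**Figure D3:**
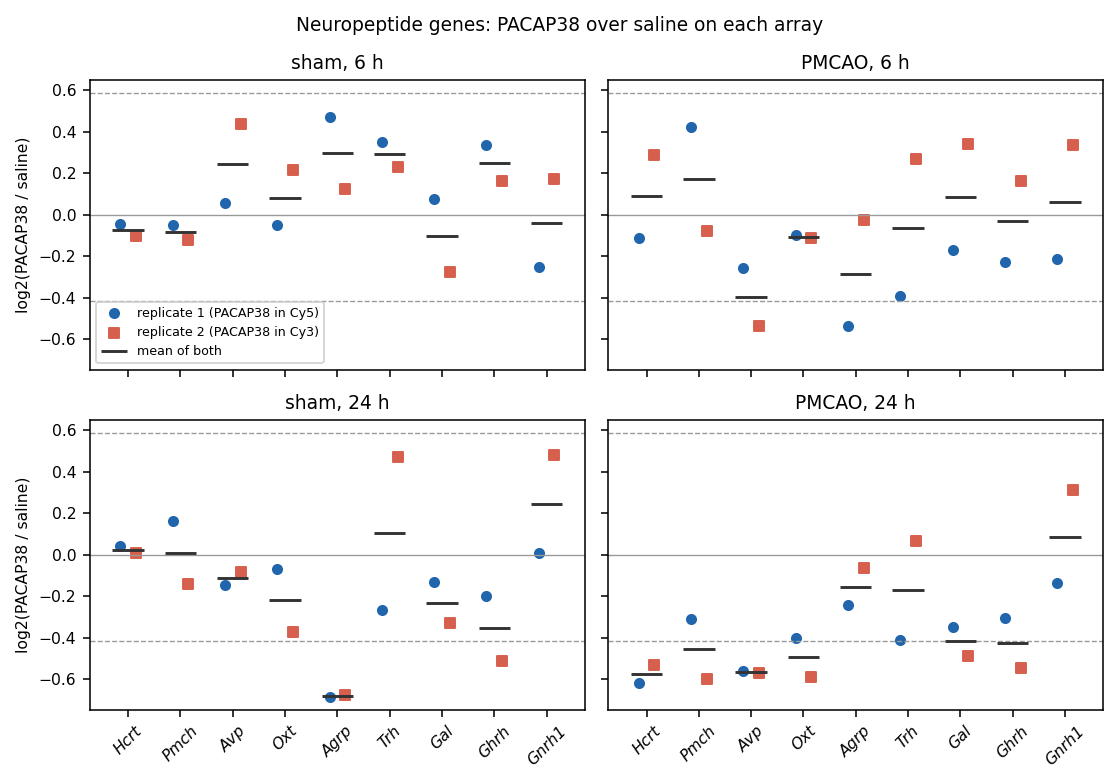
The y axis is the log2 ratio of PACAP38 to saline and the x axis the 9 genes, with a panel for each of the 4 comparisons. Points are single arrays, bars their mean, and dashed lines mark 1.5-fold and 0.75-fold. After PMCAO at 24 h, 7 of 9 genes lie below 0 on both arrays, and in sham at 24 h Agrp lies at -0.68 on both.

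Across the 4 surgery and time pairs taken as replicates, no probe passed limma's test of PACAP38 against saline at an adjusted p of 0.05 (0 of 36121, 0%, with 1782 at an unadjusted p under 0.05). The adjusted p of the 9 genes lay between 0.871 and 0.975. The mean over the 4 pairs was -0.21 for Avp (SE 0.16), -0.21 for Agrp (SE 0.18), -0.18 for Oxt (SE 0.11) and -0.13 for Hcrt (SE 0.14).

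The difference between surgeries in the response to PACAP38 was tested as well, and 0 of 36121 probes (0%, 2337 at an unadjusted p under 0.05) passed limma's test. By limma, PMCAO minus sham was -0.55 for Avp (SE 0.17, adjusted p = 0.778) and -0.22 for Hcrt (SE 0.29, adjusted p = 0.852). The larger gap of Hcrt at 24 h alone, -0.60, has no replicate and no test. For 24 h minus 6 h, 0 of 36121 probes (0%, 1887 at an unadjusted p under 0.05) passed. Among the 9 genes Ghrh came nearest to a call by limma, at -0.50 (SE 0.13, adjusted p = 0.879).

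In simulated data of this size, the test of PACAP38 over 4 pairs recovered 66 of 200 probes changed by 1 on the log2 scale and 147 of 200 changed by 2. The 2 tests of a difference recovered 0 of 200 at both sizes. Simulated noise was each probe's spread over all 4 pairs, which takes in any real difference between surgeries or times. For these 2 tests the recovery therefore does not measure how often a real difference is found.

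PMCAO was also set against sham within one treatment, dye and time. Such a value crosses 2 arrays and is open to array error, which the mean of the 2 dyes does not remove.

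With saline at 24 h, 0 of the 9 genes were past the fold in PMCAO over sham, where 23.1% of 41157 probes were past it in either direction. Avp came closest, with 0.51 and 0.56 in the 2 dyes (fold 1.44). Gnrh1 had -0.16 and -0.19, Trh 0.15 and 0.43, and Gal 0.23 and 0.30. Hcrt had 0.10 and 0.08, Pmch 0.03 and -0.02, and Oxt -0.04 and -0.02. For Hcrt, Pmch and Oxt all 6 values thus lay between -0.04 and 0.10.

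With PACAP38 at 24 h, 1 of the 9 genes was above 1.5-fold in PMCAO over sham, where 5.59% of all probes were, and 2 were below 0.75-fold, where 10.3% were. Agrp was the higher one, with 0.65 and 0.71 in the 2 dyes. Hcrt had -0.57 and -0.49 and Pmch -0.45 and -0.50. Each was past its limit in both dyes. With normexp and loess, 0 of the 9 genes were above (1.1% of all probes) and 2 below (1.51%).

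The Agrp value sets PMCAO PACAP38, at 6.99, against the low sham PACAP38 pool, at 6.31, and sham saline stood at 6.99 too. The low values of Hcrt and Pmch use the PMCAO PACAP38 pool, which also enters the comparison with saline, so the 2 comparisons share it and are not independent. Oxt had -0.38 and -0.28 and Gnrh1 -0.34 and -0.42 in PMCAO over sham with PACAP38. Avp, Gal and Trh lay between -0.03 and 0.05.

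At 6 h the array that stood apart decided the result. With it, saline mice had 6 of 9 genes above 1.5-fold in PMCAO over sham (22.7% of all probes) and 1 below 0.75-fold (27.7%). Without it, 2 were above (14.1%) and 0 below (21.1%). The 2 were Agrp at 0.63 and Ghrh at 0.59, each from the one remaining dye. Avp went from a mean of 1.91 to 0.37, Oxt from 1.43 to 0.02, Hcrt from 1.18 to 0.27 and Pmch from -1.19 to -0.15.

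With PACAP38 at 6 h, 3 of 9 genes were above the fold with that array (18.5% of all probes) and 1 below (25.3%). Without it, 0 of 9 were past the fold in either direction, against 28.3% of all probes. Hcrt went from 1.34 to 0.20, Avp from 1.26 to 0.06, Oxt from 1.24 to -0.03 and Pmch from -0.92 to 0.33. Agrp went from 0.42 to -0.36 and Trh from 0.28 to -0.29, so 4 of the 9 genes changed sign.

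**Figure D4:**
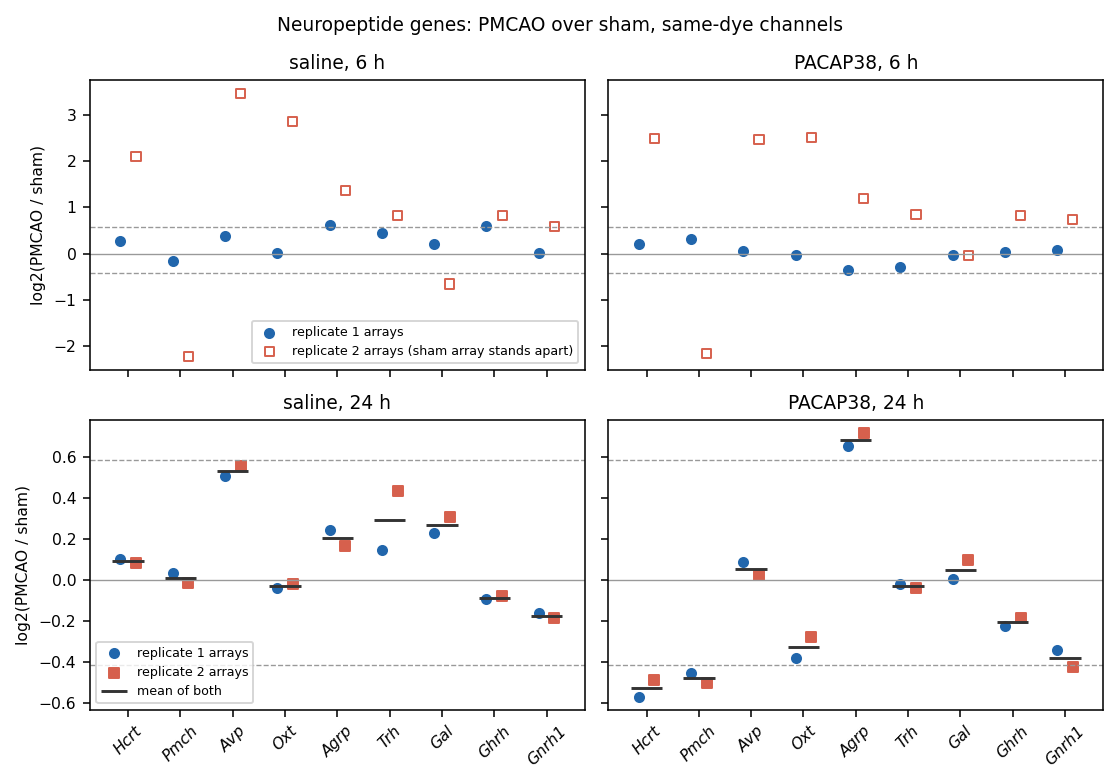
The y axis is the log2 ratio of PMCAO to sham and the x axis the 9 genes, with a panel for each treatment and time and different y scales at 6 h and 24 h. Points are the 2 dyes, and dashed lines mark 1.5-fold and 0.75-fold. At 6 h the dye read from the replicate 2 sham array lies far from the other (3.46 and 0.37 for Avp with saline), and at 24 h the 2 dyes lie close together.

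Over the 4 treatment and time pairs, 0 of 36121 probes (0%, 7992 at an unadjusted p under 0.05) passed limma's test of PMCAO against sham, and the 9 genes had adjusted p from 0.169 to 0.951. Without the array that stood apart they ran from 0.367 to 0.984. The means of Avp and Agrp were then 0.25 (SE 0.12) and 0.29 (SE 0.20), against 0.94 (SE 0.33) and 0.58 (SE 0.16) with it. The saline and PACAP38 pairs of one time are read from the same arrays. Their errors are therefore not fully independent, though the test treats them as such. In simulated data with independent pairs, this test recovered 0 of 200 probes changed by 1 on the log2 scale and 121 of 200 changed by 2. The test of the difference between times, given next, recovered 0 of 200 at both sizes. The noise of each simulated probe was its spread over all 4 pairs, which takes in any real difference between times. That recovery therefore does not measure how often the test finds a real difference.

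The effect of PMCAO at 24 h minus that at 6 h passed limma's test for 8444 of 36121 probes (23.4%), among them Hcrt at -1.48 (SE 0.26, adjusted p = 0.0336) and Oxt at -1.51 (SE 0.17, adjusted p = 0.0212). The second Ghrh probe, near background, was also called. This test too treats pairs that share arrays as independent. Without the array that stood apart, 68 of 40200 probes passed (0.169%) and 0 of the 9 genes, whose smallest adjusted p by limma was 0.407. Hcrt was then at -0.45 (SE 0.27) and Oxt at -0.17 (SE 0.18). Hcrt and Oxt were thus called with that array and not without it. Neither was called with that array included when the arrays of a comparison were taken as separate pools. The cause of the lost calls was not tested.

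Other gene lists place the 24 h result after PMCAO among its surroundings. In that comparison 8.18% of all probes were below 0.75-fold and 2.99% above 1.5-fold, and each list count is to be read beside these shares. Of 12 other hypothalamic peptide genes, 5 were below 0.75-fold with PACAP38 and 0 above 1.5-fold, with a median of -0.37. Kiss1, the kisspeptin precursor, had -0.99 and -0.67. Ucn, the stress peptide urocortin, had -0.63 and -0.83, and Pdyn, the dynorphin precursor, -0.43 and -0.50. The other 2, Npvf and Ucn3, were not well above background in either pool. By the mean of the 4 comparisons Nts (neurotensin) was highest at 0.11 and Ucn lowest at -0.55. In sham mice at 24 h, 4 of these 12 were below (3.87% of all probes) and 0 above (1.75%). Their median was -0.23, and Ucn had -1.18 and -1.59. Of those 4, Ucn3 was well above background in 0 channels and Qrfp in 3 of 16.

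Of 19 hypothalamic identity genes, mostly transcription factors of its nuclei, 2 were below the fold after PMCAO at 24 h and 0 above. Of all probes 8.18% were below and 2.99% above, and the median of the list was -0.11. Hdc, the enzyme that makes histamine in tuberomammillary neurons and in mast cells, had -1.37 and -1.51. Dlk1, a membrane protein of Notch type, had -0.42 and -0.59. A summed level adds linear signals and so mainly follows the brightest probes of a list. Over the 10 identity genes well above background in every channel it was 7423 to 7469 in PMCAO saline, 5104 to 5442 in PMCAO PACAP38, 6343 to 6408 in sham saline and 5674 to 5918 in sham PACAP38. By the mean of the 4 comparisons Hmx3 was highest at 0.20 and Hdc lowest at -0.44. PMCAO over sham at 24 h with saline had 1 of the 19 above (8.46% of all probes) and 7 below (14.6%), with a median of -0.29. With PACAP38 it had 0 above (5.59%) and 7 below (10.3%), with a median of -0.18.

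Among 18 receptors of these peptides 1 was below the fold with PACAP38 after PMCAO at 24 h (8.18% of all probes). None was above it (2.99%), and the median was 0. The 1 below was the vasopressin receptor gene Avpr1a, at -0.62 and -0.81. The hypocretin receptor Hcrtr1 had -0.30 and -0.09, and Hcrtr2 0.69 and 0.38. By the mean of the 4 comparisons Trhr was highest at 0.10 and Mchr1 lowest at -0.17. None of 12 genes for cleaving and packing peptides was past the fold, and their median was -0.01. Pcsk1, a convertase that cuts these precursors, was highest over the 4 comparisons at 0.14 and Pam, which amidates them, lowest at -0.14.

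Markers of other regions and cell types also differed between the 2 pools of the PMCAO 24 h comparison. Of all probes 2.99% were above 1.5-fold there and 8.18% below 0.75-fold. Of 9 striatal markers 4 were above 1.5-fold with PACAP38 and 0 below, with a median of 0.51. Their summed level over 7 genes was 52970 to 56770 in PMCAO saline, 68140 to 72660 in PMCAO PACAP38 and 80190 to 88270 in the sham pools at 24 h. Of 9 cortical markers 1 was above and 0 below, with a median of 0.33. The sum over 4 of them was 1917 to 2035 in PMCAO saline and 2090 to 2315 in PMCAO PACAP38. As background, the occluded artery feeds much of the striatum and lateral cortex.

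Of 6 oligodendrocyte markers 2 were below the fold (8.18% of all probes) and 0 above (2.99%), with a median of -0.35. Mobp of the myelin sheath had -0.65 and -0.94. The sum over 5 of them was 183800 to 187400 in PMCAO saline and 126800 to 146700 in PMCAO PACAP38. Thalamus markers had 0 of 10 past the fold and a median of -0.11, and their sum over 5 genes was 7896 to 8243 in PMCAO saline and 7210 to 7685 in PMCAO PACAP38. Choroid plexus markers had 1 of 7 below, with a median of -0.25. Neuron markers had 0 of 5 past the fold with a median of 0.12, astrocyte markers 0 of 6 with -0.11, and microglia markers 1 of 6 below with -0.07.

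All 10 acute ischemia genes were below 0.75-fold with PACAP38, with a median of -1.50. So were all 6 neutrophil markers, with a median of -1.98, where 8.18% of all probes were below. Of those 6, 3 were well above background in all 16 channels, Ngp in 2 channels and Camp in 0. With saline the same 10 acute ischemia genes were above 1.5-fold in PMCAO over sham (8.46% of all probes), with a median of 3.76. The part of these marker differences in the neuropeptide values was not tested. Well above background in all 16 channels were 7 of 9 striatal, 4 of 9 cortical, 5 of 10 thalamic and 10 of 19 hypothalamic identity genes, and Otp and Six6 of the last list were so in 0 channels.

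**Figure D5:**
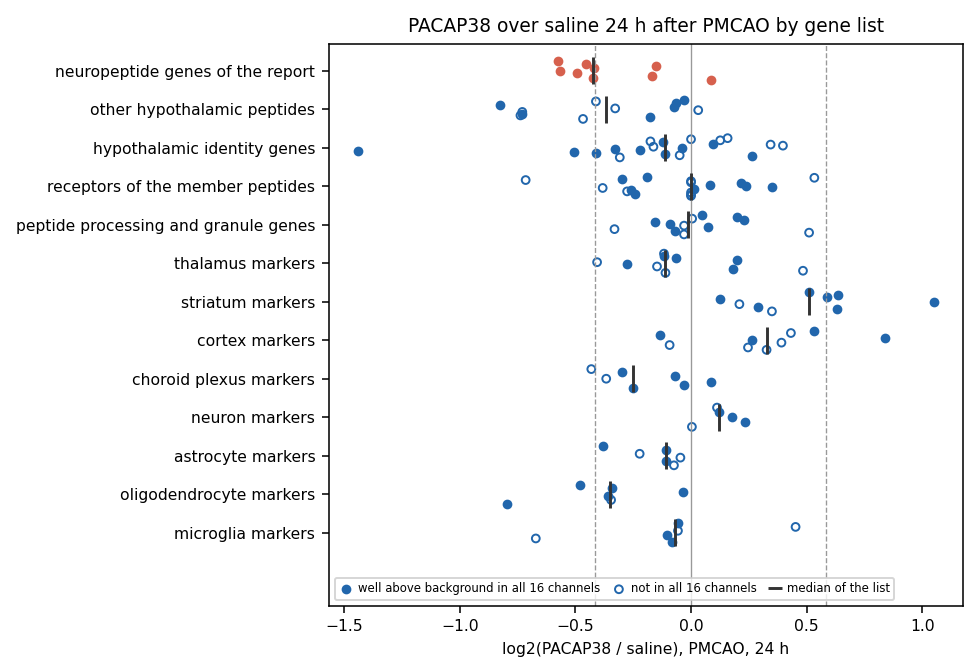
The x axis is the log2 ratio of PACAP38 to saline 24 h after PMCAO, each point a gene, and the vertical tick of each row its median. The medians of the neuropeptide genes (red, -0.43), the other hypothalamic peptides (-0.37) and the oligodendrocyte markers (-0.35) lie left of 0, and those of the striatal markers (0.51) and cortical markers (0.33) to the right.

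The genes most like a neuropeptide gene were sought for the 3 genes with the widest range over the 8 pools, among 16187 probes well above background in all channels. Likeness was the root mean square difference over the pools after centring each probe within each time. Without the array that stood apart, Megf11 (0.049), C230040D10Rik (0.052), Uhrf1 (0.057), Dynlrb2 (0.064) and Nrxn3 (0.067) were most like Oxt. Of the other 8 neuropeptide genes Pmch was nearest to Oxt, at rank 118, followed by Hcrt at rank 201. For Agrp they were Cilp2, Ube2g2, Tatdn2, Mchr1 and Tagln, and for Ghrh Srebf2, Pop1, Dnahc2, Ipo7 and Cart.

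With all arrays in, the widest genes were Avp, Agrp and Pmch. Fndc11, Tmem165, Tinagl, Ninj1 and Itpk1 were then most like Avp, and Tmlhe, Sfmbt2, Ptgr1, Irs4 and Ncapg2 most like Pmch. Tagln, Ube2g2, B3gntl1, Batf3 and Cilp2 were most like Agrp, so 3 of its 5 genes were the same in both searches. The 8 pools share arrays and slides, and these likenesses are a description.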

How the data were processed

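The deposited scanner files hold, for each of 8 arrays, spot intensity values in Cy3 and Cy5, a log10 ratio of Cy5 to Cy3, and score columns that mark spots as well above background, saturated or outlying. Per the file headers they come from Agilent Feature Extraction 9.5.1.1 (6 h) and 9.5.3.1 (24 h), which subtracted background and normalized the dyes before deposit. A deposited table of each array's Cy5 over Cy3 ratio, made by the authors, served as an alternative. No columns of the authors' own comparisons were used.

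Control and outlier spots were left out, spots of a probe were averaged, and the log10 ratio was put on the log2 scale and turned to PACAP38 over saline. For PMCAO over sham, processed intensities were normalized by loess within arrays and Aquantile between arrays with limma 3.58.1 in R 4.3.3. Groups came from the sample titles. The 2 dye-swapped arrays of a comparison were averaged to 1 replicate. limma (lmFit and eBayes, Benjamini-Hochberg) was fitted across all probes over 4 pool pairs, and p-values measure the spread between pairs that differ in surgery, treatment or time. The PMCAO over sham pairs of one time share their arrays, so they are not fully independent. Tests were tried on simulated data first. The number of arrays limits the precision.

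Each gene was led by its brightest probe. From each other list the text gives counts past the fold, the median, and the highest and lowest gene over 4 comparisons among genes well above background in all 16 channels, and further genes chosen after their values were seen. The values of 1 listed gene are not reported here. The neuropeptide genes and the lists were chosen with earlier results of these data known. Leaving out the sham 6 h replicate 2 array from the tests was added after seeing the data.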

Additional observations from a re-analysis of the deposited data

Results flagged for a closer look

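Between 6 h and 24 h the effect of PMCAO on Hcrt differed by -1.48 and on Oxt by -1.51, both past limma's test of the difference. Both values include the replicate 2 array of sham mice at 6 h. Without it the differences were -0.45 and -0.17, and neither passed. The test treats pairs that share arrays as independent.

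Hcrt was near 0 with PACAP38 in sham mice at 24 h and low on both arrays after PMCAO, a gap of -0.60 on the log2 scale. Its PMCAO over sham value was above 0 in both dyes with saline and below 0 in both with PACAP38, a gap of -0.62. These are the same 4 pools seen in 2 ways, and the gap at this time was not tested because each pool occurs once. Over both times together, PMCAO minus sham in the response to PACAP38 was -0.22 for Hcrt (SE 0.29, adjusted p = 0.852 by limma).

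With PACAP38, the PMCAO over sham value of Hcrt was above 0 in both dyes at 6 h and below 0 in both at 24 h, a gap of -1.87 that was not tested on its own. One of the 6 h dyes was read on the array that stood apart, and the other gave 0.20.

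Agrp was above 0 with PACAP38 on both arrays of sham mice at 6 h and below 0 on both at 24 h, a gap of -0.98. Its mean Cy3 signals in sham at 6 h were 58.46 and 56.06, over a background of 43 on each array. Ghrh was above 0 in both dyes in PMCAO over sham with saline at 6 h and below 0 in both at 24 h, a gap of -0.80. Neither gap was tested on its own, and both cross the 2 slides.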

How the results depend on the processing

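No paired analysis was possible because the 2 numbered arrays of a comparison carry the same pooled RNA and were averaged to 1 replicate. With slide as a random block, limma called 0 probes for PACAP38 over saline and 0 for PMCAO over sham (2784 and 3028 at an unadjusted p under 0.05). Normexp was run with an offset of 50. With normexp and loess, 0 of the 9 genes were past the fold for PACAP38 in sham at 24 h (0.187% of all probes), against 1 (5.62%). For PMCAO over sham with PACAP38 at 24 h, 0 were then above 1.5-fold (1.1%), against 1 (5.59%). At 1.5-fold in both directions the count for PACAP38 after PMCAO at 24 h was 0 (7.78%), against 6. For PMCAO over sham with PACAP38 at 24 h it was 1 (10.9%), against 3 (15.9%). From the replicate 1 or 2 array alone, with the share of all probes past the fold, the counts were 1 (23.8%) and 1 (17.3%) for PACAP38 after PMCAO at 6 h, against 0 from both. They were 1 (14.2%) and 2 (16.1%) in sham at 24 h, 2 (19.6%) and 6 (16.8%) after PMCAO at 24 h, 2 (35.3%) and 9 (62.2%) for PMCAO over sham with saline at 6 h, against 7, and 0 (28.3%) and 8 (62%) with PACAP38 at 6 h, against 4. In that last comparison Pmch ran from -2.16 to 0.33 and Oxt from -0.026 to 2.50, each with a change of sign. With both Ghrh probes averaged, Ghrh in PMCAO over sham with saline at 6 h turned from 0.71 to -0.41. Scaling by the 75th percentile moved 13 of 36 values of PMCAO over sham by more than the array error, with counts of 7, 6, 0 and 3 against 7, 4, 0 and 3. At 6 h it put 32.0% of all probes above and 20.7% below the fold with saline, against 22.7% and 27.7%, and 31.4% and 16.5% with PACAP38, against 18.5% and 25.3%.

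For PMCAO over sham, limma called 12 probes among those well above background and 1773 with the 2 arrays as separate pools, against 0. For its difference between times it called 786 with separate pools, 0 without any 1 of the 4 pairs, and 68 without the sham 6 h replicate 2 array, against 8444. The calls of Hcrt and Oxt there were lost under each of these, and the cause was not tested. Avp, Pmch, Ghrh and Gnrh1 passed there under at least 1 of 2 settings, normexp or probes well above background, with that array included. The other 4 tests called none of the 9 genes under any setting run.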

Other observations

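Of 4 markers of serotonin neurons, which lie in the brainstem raphe, 2 were below 0.75-fold with PACAP38 at 6 h in each surgery, where 7.48% of all probes were in sham mice and 6.90% after PMCAO. Both were well above background in every channel. Of the other 2, Fev had a mean of -0.36 in sham and -0.18 after PMCAO, and Slc22a3 was well above background in 0 channels. Slc6a4, the serotonin transporter, had log2 ratios of PACAP38 to saline of -3.04 and -1.72 in sham and -1.78 and -1.86 after PMCAO. Tph2, which makes serotonin's precursor, had -2.25 and -1.20 in sham and -1.05 and -1.76 after PMCAO. After PMCAO at 24 h Slc6a4 had -0.75 and -0.98, and in sham at 24 h 0.13 and -0.15. The levels of the 2 genes summed to at least 481.5 in sham saline and 227 to 327.5 in PMCAO saline at 6 h, and to 193.9 to 217.8 in sham saline and 431.1 to 460.2 in PMCAO saline at 24 h.

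Of the pituitary hormone genes, Prl (prolactin) was not well above background with PACAP38 at 24 h and at least 8.25-fold lower than with saline after PMCAO, and at least 2.53-fold lower in sham. At 6 h its means were 0.05 in sham and 0.11 after PMCAO. Cga, the shared alpha subunit of pituitary hormones, had 2.68 and 2.62 in sham at 24 h, where it was not well above background with saline and at least 2.94-fold higher with PACAP38. After PMCAO at 24 h it had 1.99 and 1.56. There 2 of 7 pituitary genes were above the fold (2.99% of all probes) and 2 below (8.18%). These values come from single pools and have no test.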
